A study of Mus musculus with 8 samples.

Results

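The genes described here are 7 whose lens signal had differed between the mouse strains C57BL/6J and 129SvJae in an earlier reading of these arrays: Ankrd46, AI506816, Spg21, Strap, Gatad2a, Cdv3 and F2r. They were chosen by name for a strain difference in at least 1 probe set, so every strain value below is a description of that choice. A call between the strains is likewise a description and no test of a member. All 16 probe sets of the MG-U74Av2 chip that are annotated to 1 of these genes were kept, each on its own, out of 12422 probe sets that are not controls and 8251 named genes. No probe set annotated to several genes included a member, and in each of the 16 some group had a mean signal over 50. Gatad2a has 4 probe sets, Ankrd46 and F2r have 3 each, AI506816 and Cdv3 have 2 each, and Spg21 and Strap have 1 each. The question is which strain differences are seen by more than 1 probe set of a gene and which by 1 only.

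The samples were whole lenses, pooled by 20 to 30, from mice of both sexes at 10 days of age. There were 4 groups of 2 arrays: C57BL/6J KO, C57BL/6J WT, 129SvJae KO and 129SvJae WT. KO mice carry a targeted disruption of α3Cx46 (Gja3), which encodes a gap junction subunit of lens fiber cells, and WT mice have the intact gene. The sources used here do not tell whether both pools of a group were drawn from different mice, and a p-value therefore reflects only how far these samples vary, which may be technical variation.

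A probe set is a group of short oligonucleotides designed against 1 transcript, and its signal summarizes how much labeled RNA bound to them. The chip often carries several probe sets for a gene because they were designed from separate cDNA or EST entries, which can lie in different parts of the transcript or belong to different transcripts of the gene. The ending of a name tells how the probes were picked: "_at" is the plain form, "_r_at" means that selection rules were dropped, "_f_at" that the probes match a family of similar sequences, and "_g_at" that they overlap with those of another probe set. The lens itself consists of an anterior epithelium and of fiber cells, which elongate, fill with crystallins and lose their nuclei.

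The members have little in common in function. Ankrd46 encodes a small protein with ankyrin repeats, and AI506816 is listed as a long noncoding RNA. Spg21 encodes maspardin, an endosomal protein whose loss causes a form of hereditary spastic paraplegia in humans. Strap encodes a WD-repeat protein that binds TGF-β receptors and belongs to the SMN complex, which assembles spliceosomal RNPs. Gatad2a encodes a subunit of the NuRD chromatin remodeling and deacetylase complex. Cdv3 was named for its induction in hearts of carnitine-deficient mice, and F2r encodes the thrombin receptor PAR1, a G protein-coupled receptor opened by proteolytic cleavage.

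The arrays had median signals of 85.2 to 114.6, and 7637 to 8602 probe sets per array exceeded 50, the level that a transcript had to exceed at least once under the study's criteria. Gja3 itself gave 445 to 519 in the 4 KO arrays and 1100.3 to 3381 in the 4 WT arrays, so the arrays carry the genotype of their labels. The arrays were scanned in 3 sessions: the first held every replicate 1, the second every replicate 2 but that of 129SvJae WT, which was scanned alone. For C57BL/6J WT replicate 1 a communication error of the fluidics station was recorded. Of 13 lens fiber markers 8 could be measured, and their summed signals were 199119 to 241424 in C57BL/6J KO and 218757 to 310626 in C57BL/6J WT lenses, against 170811 to 229571 in 129SvJae KO and 239286 to 290791 in 129SvJae WT.

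A single limma fit covered the 10078 probe sets whose mean exceeded 50 in some group, and "called" below means a Benjamini-Hochberg adjusted p under 0.05 over all of these. Ratios are log2 of C57BL/6J over 129SvJae, each averaged over KO and WT lenses (4 arrays against 4) unless the genotype is named. Averaged over genotypes, 7 of the 16 probe sets were called, 5 higher and 2 lower in C57BL/6J. Of all 10078, 0.367% were called, 0.258% higher and 0.109% lower, but since this contrast chose the members nothing is read from the comparison. The 7 calls fell in 7 different genes. No gene had a second probe set called the same way in this fit, which does not pair the arrays. Ankrd46 had 2 called probe sets once the fit blocked on scan session, and also once it blocked on replicate number. Both of them come from the same sequence entry. The block on scan session gives 129SvJae WT replicate 2, which was scanned alone, its own term. That array then no longer informs the strain ratio. The 4 C57BL/6J arrays lay wholly above the 4 129SvJae arrays in 6 probe sets and wholly below in 2 (5.57% of all probe sets had no overlap, 2.95% higher and 2.62% lower), and in the other 8 the strains overlapped. The median ratio of the 16 was 0.50, against 0.01 over all probe sets. Without 1 array the 7 calls became 4 (129SvJae WT replicate 1), 6 (129SvJae WT replicate 2), 3 (129SvJae KO replicate 1 or 2), 4 (C57BL/6J WT replicate 1), 3 (C57BL/6J WT replicate 2), 4 (C57BL/6J KO replicate 1) and 2 (C57BL/6J KO replicate 2).

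**Figure D1:**
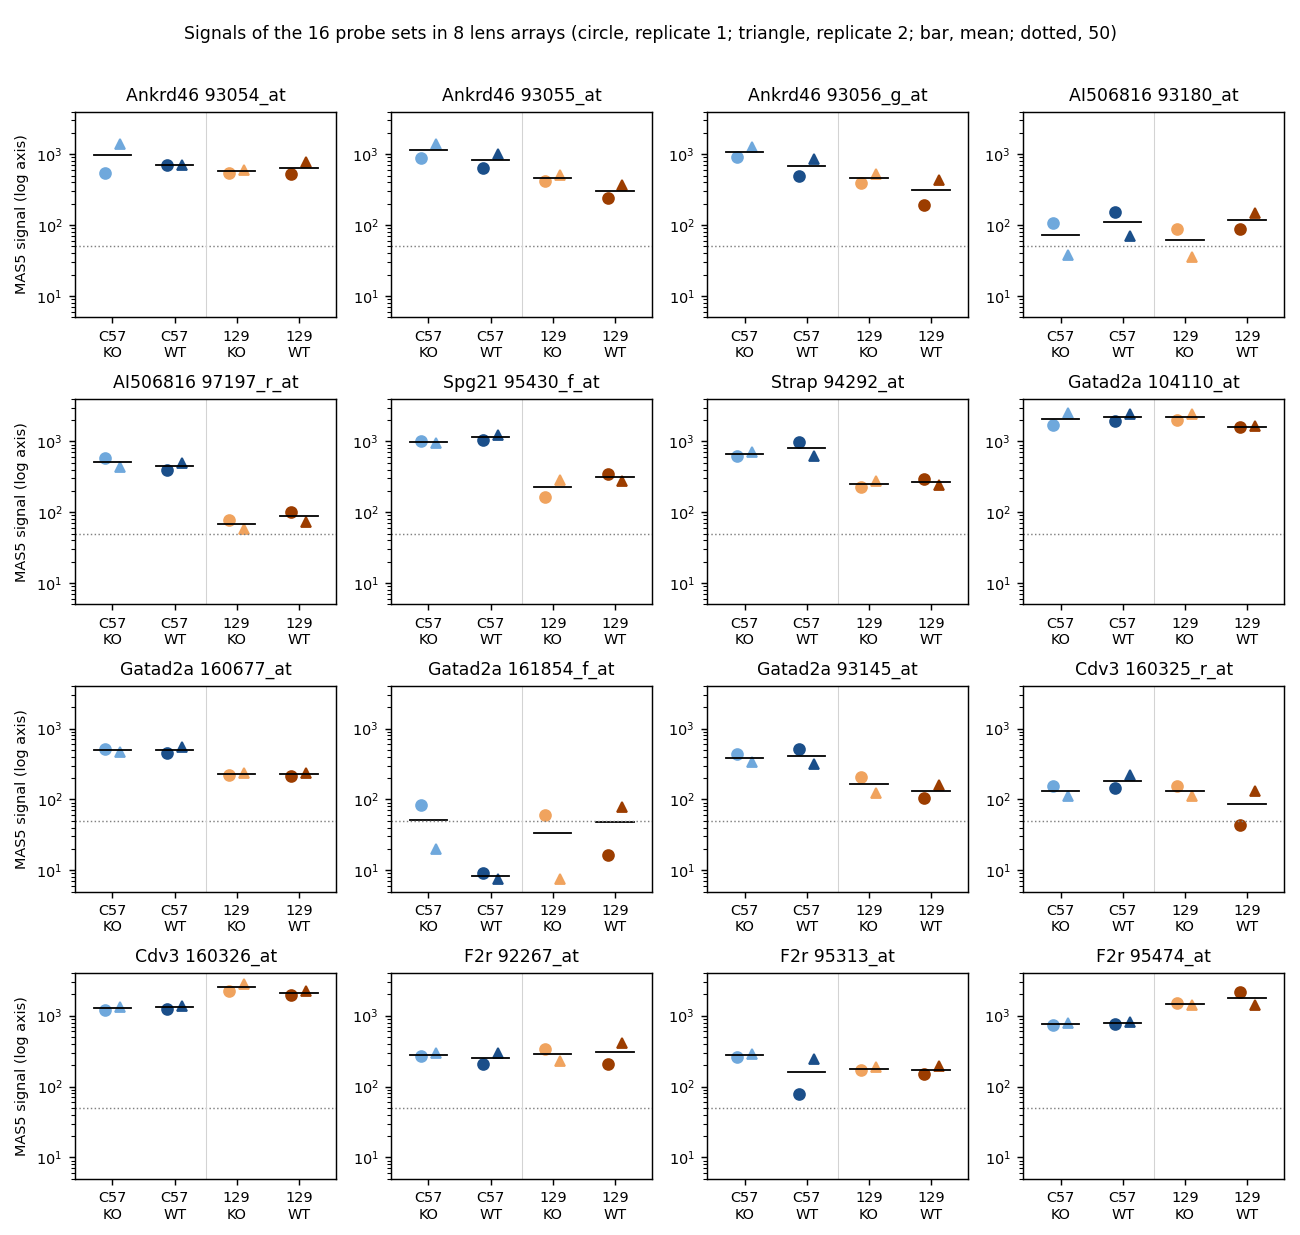
MAS5 signals (log axis) of the 16 probe sets in C57BL/6J (C57) and 129SvJae (129) lenses, WT and KO, with 2 arrays per group: circles are replicate 1, triangles replicate 2, black bars the group mean, and the dotted line a signal of 50. In 8 of the 16 panels all C57BL/6J points lie on one side of all 129SvJae points, and Gatad2a is the gene for which 2 panels do.

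Gatad2a was the member whose strain difference appeared in 2 probe sets from different sequence entries. In 93145_at the signals were 431 and 339.7 in C57BL/6J KO and 514 and 313 in C57BL/6J WT lenses, against 209 and 125 in 129SvJae KO and 106 and 160.4 in 129SvJae WT lenses. The lowest C57BL/6J array stood above the highest 129SvJae array. The ratio was 1.43 (SE 0.30), a 2.70-fold higher signal in C57BL/6J, with 1.25 (SE 0.43) in KO and 1.62 (SE 0.43) in WT lenses.

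The second Gatad2a probe set, 160677_at, had 518 and 473 in C57BL/6J KO and 458 and 544 in C57BL/6J WT lenses, against 221 and 233 in 129SvJae KO and 213 and 237 in 129SvJae WT lenses. These 8 signals formed tight sets with a wide gap between the strains. The ratio was 1.14 (SE 0.22), and the 4 ratios taken within a genotype and replicate number ran only between 1.02 and 1.23. Its spread between replicates was 0.12 on the log2 scale, against 0.44 for 93145_at. Of the 2, 160677_at was called and 93145_at was not, although 93145_at had the larger ratio. That call lay at the threshold. It held in 5 of 19 alternatives and was lost in each of the 8 fits that left out 1 array. Blocking on replicate number changed neither, and blocking on scan session exchanged them, with 93145_at called and 160677_at not.

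The other 2 Gatad2a probe sets did not separate the strains. In 104110_at the signals were 1679.7 and 2504 in C57BL/6J KO and 1944 and 2447 in C57BL/6J WT lenses, against 2001 and 2471 in 129SvJae KO and 1573 and 1636 in 129SvJae WT lenses. The strains overlapped in KO lenses and not in WT lenses, and the averaged ratio was 0.16 (SE 0.17). The probe set 161854_f_at stayed near or under 50, with 82.4 and 20.1 in C57BL/6J KO and 8.99 and 7.49 in C57BL/6J WT lenses, against 59.9 and 7.49 in 129SvJae KO and 16.6 and 77.9 in 129SvJae WT lenses. It entered the fit only through the mean of the C57BL/6J KO group, and 5 of its 8 signals were below 50. Its ratio of -0.59 (SE 0.97) therefore says little about the strains. One value for the gene depends on how its probe sets are joined: the mean of the 4 ratios was 0.53, the median 0.65, and the probe set with the highest signal gave 0.16.

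Ankrd46 showed the strain difference in 2 of 3 probe sets, but both come from the same sequence entry and are not independent of each other. In 93055_at the signals were 875 and 1407 in C57BL/6J KO and 634 and 1021 in C57BL/6J WT lenses, against 424 and 505 in 129SvJae KO and 241 and 366 in 129SvJae WT lenses. No C57BL/6J array fell to the level of a 129SvJae array, and the ratio was 1.35 (SE 0.24), a 2.55-fold higher signal.

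Its companion 93056_g_at had 911 and 1272 in C57BL/6J KO and 497 and 869 in C57BL/6J WT lenses, against 397 and 529.7 in 129SvJae KO and 195 and 427 in 129SvJae WT lenses. Here the strains touched, because 129SvJae KO replicate 2 exceeded C57BL/6J WT replicate 1, although within each genotype they did not overlap. The ratio was 1.21 (SE 0.28). This probe set was not called in the fit without a block. With the replicate number as a block it was, so that Ankrd46 then had 2 called probe sets and 8 of the 16 were called (0.576% of all probe sets). Without 129SvJae WT replicate 2 it was called as well.

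The third Ankrd46 probe set, 93054_at, is from another entry. Its signals were 552 and 1395 in C57BL/6J KO and 713 and 695 in C57BL/6J WT lenses, against 545 and 605 in 129SvJae KO and 518 and 779 in 129SvJae WT lenses. The strains overlapped, and the highest signal, from C57BL/6J KO replicate 2, stood apart from the other 7. The ratio was 0.38 (SE 0.26), and without that array it was 0.05. Over the 3 probe sets of Ankrd46 the mean ratio was 0.98 and the median 1.21, against 0.38 from the probe set with the highest signal.

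AI506816 had the largest ratio of the 16 probe sets, in 1 of its 2 probe sets. In 97197_r_at the signals were 577 and 441 in C57BL/6J KO and 388 and 499 in C57BL/6J WT lenses, against 78.0 and 58.2 in 129SvJae KO and 101 and 73.6 in 129SvJae WT lenses. The 129SvJae signals lay just above the level of 50, and every C57BL/6J signal was well clear of them. The ratio was 2.63 (SE 0.30), a 6.18-fold higher signal in C57BL/6J, with 2.90 (SE 0.43) in KO and 2.35 (SE 0.43) in WT lenses. Without any 1 of the 8 arrays the ratio stayed between 2.51 and 2.74.

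The other AI506816 probe set, 93180_at, gave 106 and 37.8 in C57BL/6J KO and 152 and 69.9 in C57BL/6J WT lenses, against 87.5 and 35.3 in 129SvJae KO and 87.4 and 148 in 129SvJae WT lenses. The strains overlapped fully, and the lowest signals came from replicate 2 of the KO groups in both strains. Its ratio was 0.02 (SE 0.55), so the 2 probe sets of this gene lay 2.60 apart on the log2 scale. Replicates differed by 0.85 (SD, log2) in 93180_at and by 0.29 in 97197_r_at.

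Cdv3 was the member whose 2 probe sets had opposite signs. In 160326_at the signals were 1201 and 1337 in C57BL/6J KO and 1230.4 and 1385 in C57BL/6J WT lenses, against 2229 and 2806 in 129SvJae KO and 1959 and 2201 in 129SvJae WT lenses. All C57BL/6J arrays were lower, and the ratio was -0.83 (SE 0.15), with -0.98 (SE 0.21) in KO and -0.67 (SE 0.21) in WT lenses. In 160325_r_at the signals were 154 and 112 in C57BL/6J KO and 146 and 219 in C57BL/6J WT lenses, against 152 and 111 in 129SvJae KO and 43.9 and 130.1 in 129SvJae WT lenses. The KO groups were nearly equal, and the positive ratio of 0.63 (SE 0.43) came from the WT groups, where 129SvJae WT replicate 1 was below 50. Averaging the 2 probe sets would give -0.10 for the gene. The mouse gene table also lists a pseudogene, Cdv3-ps, and whether either probe set matches it was not tested.

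F2r was lower in C57BL/6J in 1 of 3 probe sets. In 95474_at the signals were 739.8 and 799 in C57BL/6J KO and 763 and 822 in C57BL/6J WT lenses, against 1492 and 1403 in 129SvJae KO and 2149.65 and 1410.0 in 129SvJae WT lenses. The C57BL/6J arrays lay close together and all below the 129SvJae arrays. The ratio was -1.02 (SE 0.17), with -0.91 (SE 0.25) in KO and -1.14 (SE 0.25) in WT lenses. Without 129SvJae WT replicate 1, the highest of them, the averaged ratio was -0.87.

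The other F2r probe sets had ratios near 0. In 92267_at the signals were 267 and 293 in C57BL/6J KO and 209 and 294 in C57BL/6J WT lenses, against 339 and 232 in 129SvJae KO and 205 and 414 in 129SvJae WT lenses, with a ratio of -0.12 (SE 0.29). In 95313_at they were 261 and 289 in C57BL/6J KO and 78.6 and 241 in C57BL/6J WT lenses, against 173 and 186 in 129SvJae KO and 150.1 and 192 in 129SvJae WT lenses, with a ratio of 0.16 (SE 0.37). Strains overlapped in both, and in 95313_at the KO arrays alone separated, with C57BL/6J higher. F2r is expressed by endothelial cells in many tissues, and all 8 endothelial markers were on the chip. Their summed signals were 825 to 1163 in C57BL/6J KO and 921 to 1057 in C57BL/6J WT lenses, against 634 to 1079 in 129SvJae KO and 991 to 1204 in 129SvJae WT, and none of their 8 tested probe sets was called between the strains by limma (none at an unadjusted p under 0.05 either, and no other tool was run for them). In pooled tissue, fewer cells of a type and less RNA per cell cannot be told apart.

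Spg21 and Strap have 1 probe set each under the annotation used, so their differences have no second probe set to set them beside. The signals of Spg21 95430_f_at were 1020.2 and 955 in C57BL/6J KO and 1052 and 1246 in C57BL/6J WT lenses, against 165 and 287 in 129SvJae KO and 349 and 272 in 129SvJae WT lenses. Every C57BL/6J array was above every 129SvJae array, with a ratio of 2.04 (SE 0.22), or 4.10-fold. Because this probe set is of the family kind, other transcripts of similar sequence may add to its signal, which was not tested. The signals of Strap 94292_at were 619.9 and 719 in C57BL/6J KO and 967 and 621 in C57BL/6J WT lenses, against 226 and 274 in 129SvJae KO and 295 and 239 in 129SvJae WT lenses. The strains were again apart, with a ratio of 1.49 (SE 0.22), or 2.80-fold.

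**Figure D2:**
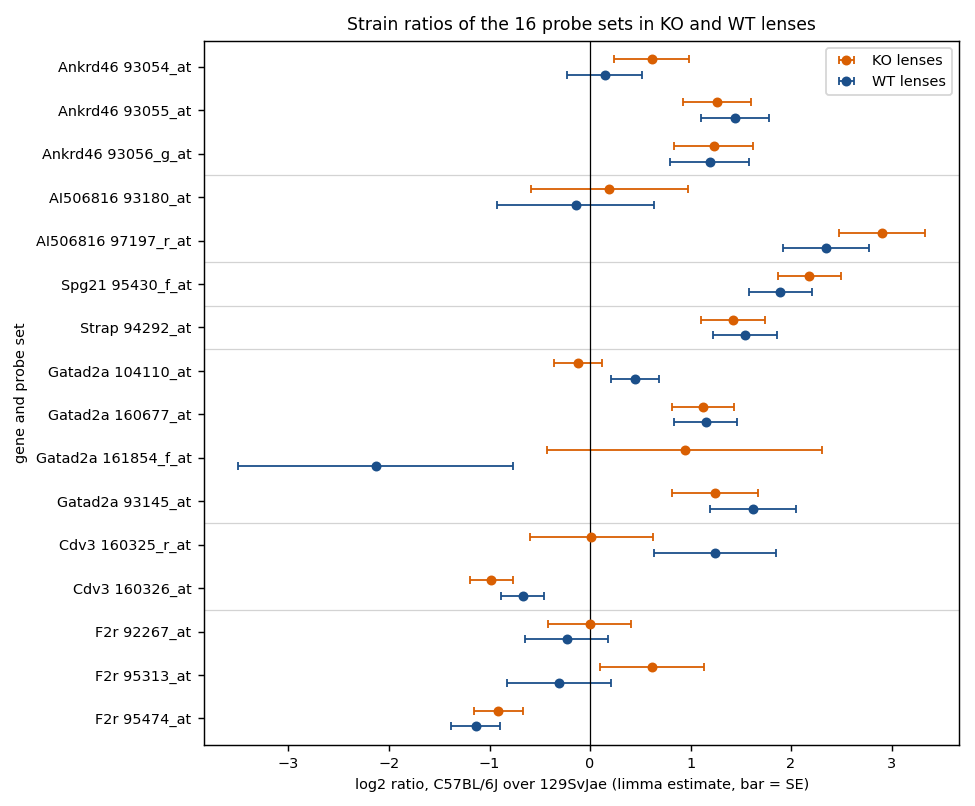
Log2 ratios of C57BL/6J to 129SvJae signal for the 16 probe sets (rows, grouped by gene), in KO lenses (orange) and WT lenses (blue); points are limma estimates from 2 arrays per group and bars are standard errors. AI506816 97197_r_at lies farthest to the right, at 2.90 in KO and 2.35 in WT lenses, while its companion 93180_at straddles 0, and the Cdv3 probe sets lie on opposite sides in WT lenses.

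Taken alone, KO lenses gave 2 called members, Spg21 and AI506816 97197_r_at (0.0893% of all probe sets), and WT lenses gave 0 (0.0695%). With the replicate number as a block WT lenses gave 2. These contrasts are part of what chose the members. For the 8 probe sets with no overlap between strains the sign of a ratio is fixed for any subset of the arrays, so only its size can vary between scan sessions. In the first session, which holds all 4 groups, their ratios were -1.25 and -0.78 for F2r 95474_at and Cdv3 160326_at and 1.17 to 2.41 for the other 6. In the second, which lacks 129SvJae WT, they were -0.79 and -1.04, and 1.12 to 3.01.

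The difference of the strain ratios between KO and WT lenses is made from these same contrasts, so its fit is not independent of the choice of members. By limma 0 of the 16 probe sets were called for this difference (0.00% of all probe sets), and 0 had an unadjusted p under 0.05 (2.11% of all). The estimates of KO ratio minus WT ratio ran from -1.23 (SE 0.86) for Cdv3 160325_r_at to 3.07 (SE 1.93) for Gatad2a 161854_f_at. For the 8 probe sets with no overlap between strains they lay between -0.38 and 0.55, with standard errors of 0.30 to 0.61.

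The effect of the connexin knockout on the members was tested as well. Averaged over the strains, none of the 16 probe sets was called for KO against WT (0.0198% of all probe sets), and in all 16 the 4 KO and 4 WT arrays overlapped (2.19% of all probe sets had no overlap). Within C57BL/6J lenses and within 129SvJae lenses no member was called by limma (0.00992% and 0.00% of all), or had an unadjusted p under 0.05 (2.31% and 3.12% of all). The ratios of KO to WT ran from -0.87 to 0.77, with 11 positive and 5 negative and a median of 0.10, against -0.02 over all probe sets.

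Averaged over the strains, 2 probe sets had an unadjusted p under 0.05 for the knockout (3.05% of all), the Ankrd46 companions 93055_at and 93056_g_at. Their ratios of KO to WT were 0.55 (SE 0.24, adjusted p = 0.998) and 0.69 (SE 0.28, adjusted p = 0.998) by limma, so neither passed. In both strains the mean was higher in KO lenses: 93055_at averaged 1141 ± 376 in C57BL/6J KO against 827 ± 274 in C57BL/6J WT lenses, and 465 ± 56.9 in 129SvJae KO against 303 ± 88.9 in 129SvJae WT lenses (SD, n = 2 each). The third Ankrd46 probe set had 0.09 (SE 0.26, adjusted p = 0.998 by limma). With the replicate number as a block the adjusted p of both companions was 0.919.

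**Figure D3:**
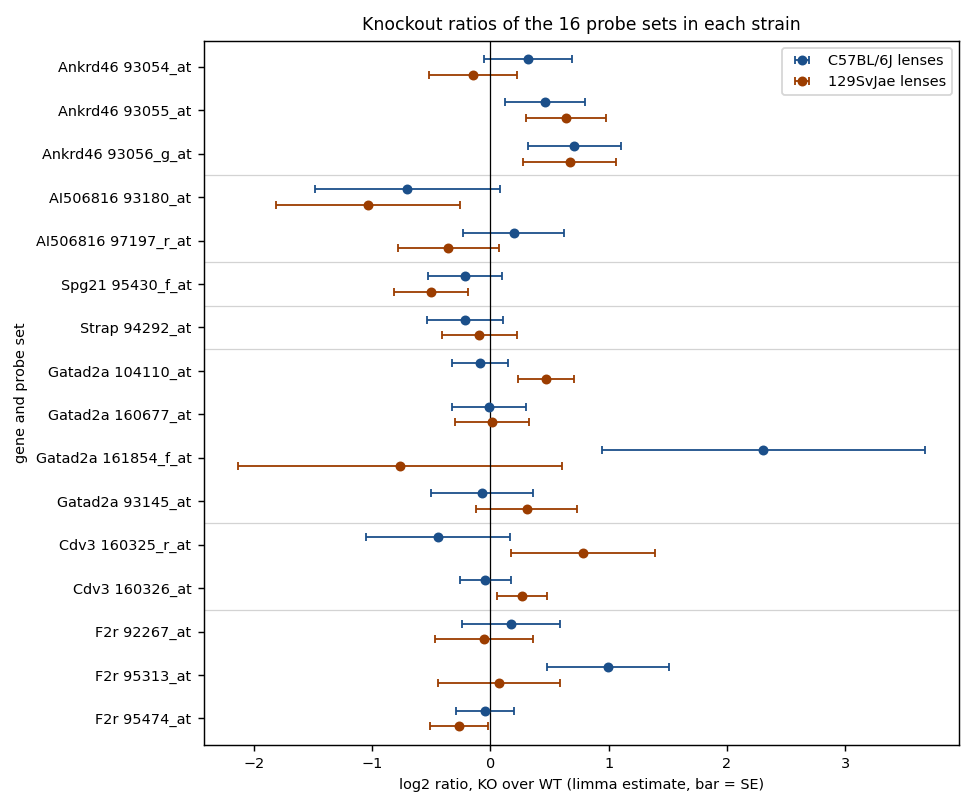
Log2 ratios of KO to WT signal for the 16 probe sets (rows, grouped by gene), in C57BL/6J lenses (blue) and 129SvJae lenses (brown); points are limma estimates from 2 arrays per group and bars are standard errors. Most points lie within 1 of 0 on this scale, the Ankrd46 companions 93055_at and 93056_g_at are positive in both strains, and no probe set was called.

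The probe sets of a gene were compared over the whole chip. Of the 1479 genes with 2 or more tested probe sets, 713 (48.2%) had the same sign of the strain ratio in all of them, and the highest and the lowest ratio of a gene lay a median of 0.47 apart, with 1.33 at the 90th percentile. This count takes in all genes, whether or not the strains differed in them. Of the 9 genes outside the members with several tested probe sets and a called one, 7 (77.8%) had the same sign in all. Among the 5 members with several probe sets, 2 had 1 sign throughout, Ankrd46 and AI506816. For AI506816 this sign is not settled, because 93180_at had a ratio of 0.02 (SE 0.55). Its ratio was positive in 12 of 19 alternatives and negative in 7. The spans of the 5 members were 0.97 for Ankrd46, 1.18 for F2r, 1.45 for Cdv3, 2.03 for Gatad2a and 2.60 for AI506816. In this order, 20.3%, 13.4%, 7.44%, 2.03% and 0.676% of the 1479 genes had a wider span. A wide span is partly what choosing a gene for 1 large ratio brings, so these places are given as a description.

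**Figure D4:**
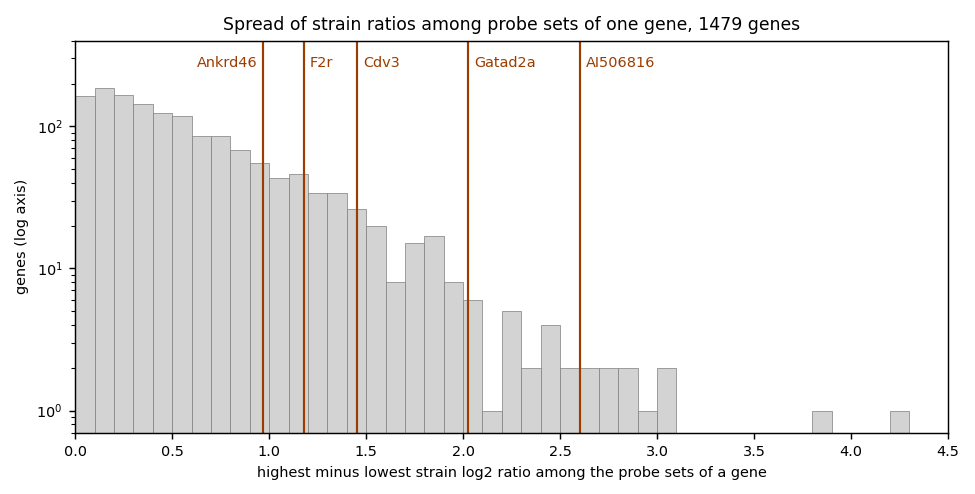
Histogram of the distance between the highest and the lowest log2 strain ratio among the tested probe sets of a gene (x axis), for 1479 genes with 2 or more of them (y axis, number of genes, log axis); vertical lines mark the 5 members with several probe sets. Ankrd46 lies at 0.97, F2r at 1.18, Cdv3 at 1.45, Gatad2a at 2.03 and AI506816 at 2.60, against a median of 0.47 for all 1479.

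How often a second probe set gave the same separation depended on which genes were counted. Of the 1479 genes, 150 had at least 1 probe set in which the strains did not overlap, and in 9 of them (6.00%) 2 or more did so in the same direction. Gatad2a is 1 of the 9, beside Ceacam10, Epb41l4a, Etf1, Fam32a, Gas5, Ggps1, Gnb1 and Tsc2. Among the 14 genes with several tested probe sets and a called one, 5 (35.7%) had 2 or more such probe sets, and without the members 4 of 9 (44.4%) did. Of the 14, 2 (Epb41l4a and Gas5) had a second called the same way, and the 5 members are among the 12 with 1 called, although Ankrd46 had 2 in the fits that blocked on replicate number or on scan session. The probe sets of Epb41l4a, a band 4.1 membrane skeleton gene, gave 1.39 and 1.35 and lay 0.04 apart, closer than those of any member. These counts do not require independent probe sets. In Gas5, Gnb1 and Tsc2 the probe set with the largest ratio is a "_g_at" one, which overlaps with another probe set.

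Other genes of the members' pathways were set beside them. Of the NuRD complex, 8 of 13 further genes were tested, with 8 probe sets, and none was called between the strains (1 at an unadjusted p under 0.05, by limma, and no other tool was run). Their median ratio was -0.05, and Rbbp4, a histone-binding subunit, had 0.43 (SE 0.15, adjusted p = 0.473 by limma). Of 23 further genes of thrombin receptor signaling 13 were tested with 23 probe sets, with none called (none at an unadjusted p under 0.05, by limma) and a median of 0.04. Gna13, a G protein alpha subunit, had 0.87 (SE 0.48, adjusted p = 0.816 by limma) in a probe set with group means of 56.1 to 132. Its other probe set, with group means of 237 to 258, had 0.04 (SE 0.26), so the larger ratio was not seen by both.

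The SMN complex and other partners of Strap gave 8 tested genes of 16 with 9 probe sets, none called (1 at an unadjusted p under 0.05, by limma) and a median of -0.05. Pdpk1, a kinase of growth factor signaling, had -0.49 (SE 0.18, adjusted p = 0.509 by limma). Of 21 further spastic paraplegia genes 12 were tested with 18 probe sets, none called (2 at an unadjusted p under 0.05, by limma), with a median of -0.10. Kif1a, a kinesin that carries synaptic vesicle precursors, had 0.96 (SE 0.25, adjusted p = 0.187 by limma). Of 11 carnitine uptake and shuttle genes 6 were tested with 7 probe sets, none called (none at an unadjusted p under 0.05, by limma), with a median of 0.07. The median over all probe sets was 0.01. For KO against WT none of these genes was called either.

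The genes next to the members on the chromosome were looked up in the gene table of GRCm38.p6, 3 on either side. Of these 42 genes, 8 had a tested probe set and none was called between the strains (1 at an unadjusted p under 0.05, by limma, Pabpc1 beside Ankrd46 at -0.36, SE 0.13, adjusted p = 0.475). Topbp1, next to Cdv3, had -1.65 (SE 0.90, adjusted p = 0.807 by limma). The absence of calls covers only the 8 tested genes. Bfsp2, at place 2 beside Cdv3, is not on the chip and could not be compared here. For Bfsp2 the paper reports a large difference between the strains by real-time PCR, in WT and in KO lenses.

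Likeness of pattern was measured as the root mean square difference over the 8 arrays between log2 signals centered on their own mean, for the probe set of each member with the largest ratio. The nearest probe set of another gene was Pgam2 for Cdv3 160326_at (0.10), 1810058I24Rik for F2r 95474_at (0.18), Zfp758 for Spg21 (0.22), Zfp617 for Strap (0.25), Tom1 for Ankrd46 93055_at (0.27), Hrh2 for Gatad2a 93145_at (0.29) and Pla2g12a for AI506816 97197_r_at (0.39). Second nearest were Gnb1 for Cdv3 (0.12), Uhmk1 for F2r (0.20), Pla2g12a for Spg21 (0.25), Sash1 for Strap (0.26), Arpc5 for Ankrd46 (0.30), Mos for Gatad2a (0.30) and Col6a3 for AI506816 (0.41).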

How the data were processed

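Labeled cRNA of pooled lenses was hybridized to MG-U74Av2 chips, 1 sample to a chip. The deposited values are intensity values on a linear scale, MAS5 signals by the submitters' processing notes, which the authors had scaled to a mean of 250. The table gives no detection calls, so precision rests on the signal over background and on 2 arrays per group. The signals of an array were brought to a trimmed mean of 250 (2% off each end), a signal at or under 0 was set to 1, and log2 signals were fitted in R 4.3.3 with limma 3.58.1: 4 group means, a variance trend, 4 residual and 9.17 prior degrees of freedom. Of 12488 probe sets, 66 controls and 2344 under the level filter were left out, and 10078 were tested. Of the 12422 that are not controls, 10833 have 1 gene symbol, 396 several and 1193 none, and symbols were updated by gene ID through the GRCm38.p6 table (10817 matched). Probe positions and probe sequences were not used, because no build is stated for the chip's design and the sequences were not at hand. The order of genes in the GRCm38.p6 table was used to find the neighbors.

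The members, lists and neighbors were chosen with earlier results of these data known. The rule for named genes took the 7 members with all their probe sets, the listed pathway genes with the smallest adjusted p, 3 gene neighbors on either side and the 2 probe sets most alike. The replicate numbers pair the arrays: for each of the 6 pairs of groups, deviations of same-numbered arrays from their group means correlated (r between 0.129 and 0.206), and the number follows the scan session. Alternatives were other scalings, an offset or floor for low signals, other level filters and no variance trend. Further ones took the replicate number or scan session as a block, or used an equal-variance t-test on log2 signals. That t-test was called by adjusted p, without the study's own fold change and p criteria. Each array was also left out in turn, where a group with 1 array is assumed to vary like the others. The fit was run on simulated signals with known changes, to check that its estimated ratios followed them. In the simulation the arrays varied independently, unlike the paired arrays here, so it does not check the calls in these data. Marker lists of epithelium, blood, retina, pigmented cells, macrophages and fibroblasts gave no probe set called between the strains by limma (0 of 9, 2, 4, 5, 3 and 3, and 2 at an unadjusted p under 0.05). The summed retina signals were 367 and 1006 in 129SvJae WT and at most 459 in the other groups. The retina marker Sag averaged 259 in 129SvJae WT, against 25.7 to 62.5 in the other groups. Most of that mean came from 1 of the 129SvJae WT arrays, with a signal of 475. Whether retinal RNA was present in these lenses was not tested.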

Additional observations from a re-analysis of the deposited data

Results flagged for a closer look

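A single array stood far from the other 3 of its strain in 2 probe sets, out of 32 sets of 4 arrays looked at, where chance alone flags about 1 in 20. In F2r 95474_at the 129SvJae WT replicate 1 signal of 2149.65 lay 0.882 of the whole 129SvJae range away from the next, and in Gatad2a 161854_f_at the C57BL/6J KO replicate 1 signal of 82.4 lay 0.832 of the C57BL/6J range away, most of that probe set being under 50. No cause was tested.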

How the results depend on the processing

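Leaving out 1 array gave 2 to 6 called members for the averaged strain difference, 0 to 1 in WT lenses, 0 to 2 in KO lenses, and 0 to 1 genes with a second called probe set (1, Ankrd46, without 129SvJae WT replicate 2). For the averaged difference the 7 calls became 2 with arrays centred on the median, 4 without a level filter and 0 without a variance trend. They became 2 (AI506816 97197_r_at and Gatad2a 160677_at) by an equal-variance t-test on log2 signals. Calls by that t-test used an adjusted p under 0.05, and the study's own fold change and p criteria were not applied. The 2 calls in KO lenses became 0 with median centring, without a variance trend and by the t-test, and the 0 in WT lenses became 1 with an offset of 16, 2 with the replicate number as a block and 1 with the scan session as a block. Both blocks gave 1 gene (Ankrd46) with 2 called probe sets. The scan session block and the fit without 129SvJae WT replicate 2 set the same array aside, so they are not separate checks. Of 19 alternatives, AI506816 97197_r_at was called in 18, Spg21 in 17, Strap in 15, Ankrd46 93055_at in 10, F2r 95474_at in 9, Cdv3 160326_at in 8, Gatad2a 160677_at in 5, Ankrd46 93056_g_at in 3 and Gatad2a 93145_at in 1, and these 9 kept their sign in all 19. Over all 10078 probe sets the 37 averaged calls ranged from 1 (no variance trend) to 86 (scan session as a block), with 19 under median centring, 58 with the replicate number as a block, 20 by the t-test and 18 to 51 without 1 array. No member was called for the knockout or for the difference between genotypes under any alternative fitted with limma. Signals near 50 limit Gatad2a 161854_f_at, AI506816 93180_at and Cdv3 160325_r_at. The cause of these changes was not tested. Because the averaged strain difference chose the members, the counts of their strain calls only describe the dependence on processing.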
